A study of Mus musculus with 6 samples.

Results

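Hepatic cholesterol is built from squalene by a short chain of enzymes, and 9 of their genes were followed here: Sqle, Lss, Cyp51, Msmo1, Nsdhl, Hsd17b7, Ebp, Sc5d and Dhcr7. They were chosen by name from the 32212 rows of the deposited gene count table, and all 9 were among the 13867 genes that passed the filter on low counts. Liver was taken from 3 WT and 3 CgA-KO mice, all male, on a C57BL/6 background, fed normal chow and labelled 2 yr of age. CgA-KO mice lack chromogranin A, the prohormone of neuroendocrine cells that the gene Chga encodes, and how the deletion was made is not given in the sources used here. Poly(A) RNA of each liver was sequenced as 1 library, and the question put to these genes was whether their transcripts differed between the genotypes.

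In CgA-KO livers 7 of the 9 genes fell and 0 rose, and 8 were lower by DESeq2 and, without adjustment, at an edgeR p-value under 0.05. The levels of the other two, Hsd17b7 and Ebp, were also lower on average, but these differences did not pass the test. The decrease was deepest for Msmo1, whose CgA-KO level was 22.2% of the WT level, and Sqle, Lss, Cyp51, Nsdhl and Sc5d stood at 31.1% to 39.9% of WT. The median log2 fold change of the 9 genes was -1.45, against -0.01 for all genes tested. The 9 genes were chosen with earlier results of these data known, so this contrast is a description and was not tested. As background, edgeR's quasi-likelihood test called 3.84% of all genes tested lower and 8.60% higher in CgA-KO livers at an adjusted p-value under 0.05. DESeq2 called 7.15% lower and 11.6% higher, and 11.9% were lower and 17.2% higher at an edgeR p-value under 0.05 without adjustment.

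Cholesterol synthesis has an upper arm, in which acetyl units are joined into mevalonate and then squalene, and a lower sterol arm that closes squalene into rings and trims the product to cholesterol. The sterol arm works in the membrane of the endoplasmic reticulum, uses oxygen at several steps and draws electrons from cytochrome P450 reductase and cytochrome b5. Its genes are classical targets of the sterol regulatory element binding proteins (SREBPs), membrane-bound transcription factors that are released when membrane sterol is low and held back when it is high. SREBPs bind a short sterol regulatory element and usually act with NF-Y, which binds CCAAT, and Sp1, which binds GGGCGG. The liver makes cholesterol for its own membranes, for lipoproteins and for bile acids.

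The promoters of 6 of the genes are shown because SREBP, NF-Y and Sp1 are known to act in such windows. Each run reads 5′ to 3′ on the strand of the gene and ends just before the RefSeq start, or before the GENCODE first exon where that begins earlier. The sequence is from RefSeq (GRCm38.p6). Capitals mark matches to the loose sterol element TCACNNCA, to the NF-Y box CCAAT, which reads ATTGG on the opposite strand, and to the Sp1 box GGGCGG, which then reads CCGCCC.
Lss, chr10:76531355-76531587, plus strand: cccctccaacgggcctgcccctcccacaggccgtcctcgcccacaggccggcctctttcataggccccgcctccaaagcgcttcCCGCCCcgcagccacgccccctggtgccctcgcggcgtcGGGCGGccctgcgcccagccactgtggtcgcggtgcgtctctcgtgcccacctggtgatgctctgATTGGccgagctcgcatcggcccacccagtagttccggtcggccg
Cyp51, chr5:4104747-4104947, minus strand: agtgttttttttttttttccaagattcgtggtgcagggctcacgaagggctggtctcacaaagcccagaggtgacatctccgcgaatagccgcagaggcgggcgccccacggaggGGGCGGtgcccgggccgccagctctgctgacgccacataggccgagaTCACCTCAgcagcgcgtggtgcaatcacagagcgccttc
Nsdhl, chrX:72918271-72918520, plus strand: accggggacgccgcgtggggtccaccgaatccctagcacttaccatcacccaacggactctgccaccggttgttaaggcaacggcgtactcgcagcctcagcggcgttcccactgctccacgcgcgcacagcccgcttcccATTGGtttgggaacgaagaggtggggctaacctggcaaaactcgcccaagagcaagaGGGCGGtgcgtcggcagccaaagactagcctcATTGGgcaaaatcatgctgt
Hsd17b7, chr1:169969242-169969455, minus strand: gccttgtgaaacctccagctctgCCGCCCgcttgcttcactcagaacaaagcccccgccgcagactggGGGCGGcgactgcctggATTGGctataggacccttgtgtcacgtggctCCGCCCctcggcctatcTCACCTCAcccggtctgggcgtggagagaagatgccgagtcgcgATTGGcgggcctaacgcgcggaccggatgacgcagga
Ebp, chrX:8193513-8193762, minus strand: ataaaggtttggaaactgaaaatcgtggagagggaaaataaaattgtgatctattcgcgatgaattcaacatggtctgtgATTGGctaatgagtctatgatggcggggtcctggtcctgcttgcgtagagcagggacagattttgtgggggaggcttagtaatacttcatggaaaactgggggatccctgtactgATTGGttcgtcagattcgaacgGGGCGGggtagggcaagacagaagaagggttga
Sc5d, chr9:42264301-42264550, minus strand: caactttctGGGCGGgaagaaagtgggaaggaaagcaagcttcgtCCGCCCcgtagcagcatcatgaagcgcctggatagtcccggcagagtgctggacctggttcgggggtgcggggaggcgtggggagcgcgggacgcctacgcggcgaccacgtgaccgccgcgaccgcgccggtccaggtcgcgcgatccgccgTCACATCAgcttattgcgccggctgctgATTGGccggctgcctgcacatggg
The runs of Lss, Cyp51 and Hsd17b7 leave out 17, 49 and 36 bases for that reason, among them the CCAAT match of Cyp51 and the one of Hsd17b7 that lies 12 bases before its start.

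Motifs were counted in the whole 250 bases before each RefSeq start, with 10 windows for 8 of the genes, since Dhcr7 has 3 starts and Sqle was not matched. CCAAT was found for 8 of the 8 genes, and in 40.5% of the 11013 tested genes with a promoter. GGGCGG was also found for 8 of the 8 genes, against 60.0% of the tested genes. The strict sterol regulatory element TCACNCCAC, searched on both strands, was found for 0 of the 8 genes, and 1.23% of the tested genes held it. A looser form, TCACNNCA, was chosen after the sequences were seen, and every TCACNCCAC holds it. It was found for 5 of the 8 genes (Cyp51, Msmo1, Hsd17b7, Sc5d and Dhcr7), while 11.6% of the tested genes had a match. For Dhcr7, start 1 held neither CCAAT nor TCACNNCA. Its CCAAT matches were at start 3 alone and its TCACNNCA matches at starts 2 and 3, whose windows lie inside the GENCODE gene. Of all 32851 promoters, 33.8% held CCAAT, 32.7% GGGCGG, 1.05% TCACNCCAC and 11.4% TCACNNCA. GC content affects such shares: its median was 58.8% over the promoters of tested genes, and the windows of the 8 genes ran from 44.8% to 73.6%.

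The matches lay at unlike distances from the start sites. Cyp51 and Hsd17b7 carried the same 8 letters, TCACCTCA, which began 88 and 117 bases before their starts, while Sc5d carried TCACATCA 52 bases before its start. Msmo1, the gene with the deepest decrease, had 3 CCAAT matches, at 160, 96 and 55 bases before its RefSeq start. Its window ran from 64733579 to 64733828 on the minus strand, and the GENCODE gene reaches to 64733792. All 3 of these matches, and both of its TCACNNCA matches, therefore lie inside the GENCODE gene. Ebp and Hsd17b7, which did not pass the test, held 2 and 3 CCAAT matches. The number of matches therefore did not order the genes by their difference between genotypes, and a match is a description of letters, not evidence of binding.

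**Figure D1:**
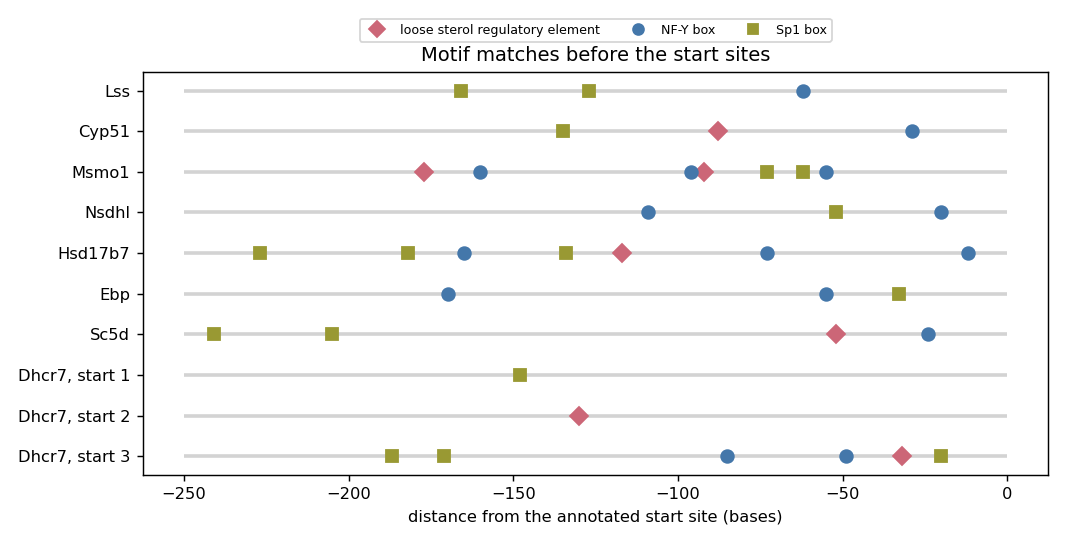
Matches to TCACNNCA (diamonds), CCAAT (circles) and GGGCGG (squares) in the 250 bases before each RefSeq start, by distance from the start in bases, for the 8 genes with a promoter entry (Dhcr7 has 3 starts). CCAAT matches appear for all 8 genes, between 12 and 170 bases before a start. Those of Msmo1, Cyp51 and Dhcr7, and the nearest of Hsd17b7, lie inside the GENCODE gene.

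The count tables were of unequal depth, with total counts between 10558616 (WT replicate 1) and 31087453 (WT replicate 2). The 9 genes together held 13714 to 31890 counts in the WT libraries and 9330 to 17589 in the CgA-KO libraries. As a share of each library this was 0.130%, 0.103% and 0.0985% in WT replicates 1, 2 and 3, and 0.0485%, 0.0613% and 0.0518% in the CgA-KO replicates. A floor of 3 counts corresponded to 0.0965 to 0.284 CPM (counts scaled to the library total), far below the levels of all 9 genes. Chga had 0 counts in all 6 libraries, so the targeted gene could not check the genotype labels. Hepatocyte markers, which define the labelled tissue, summed to between 52270 and 100200 CPM in every library. Levels below are TMM-normalized CPM, the count scaled to a library size corrected by the trimmed mean of M values, with the SD over 3 livers.

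**Figure D2:**
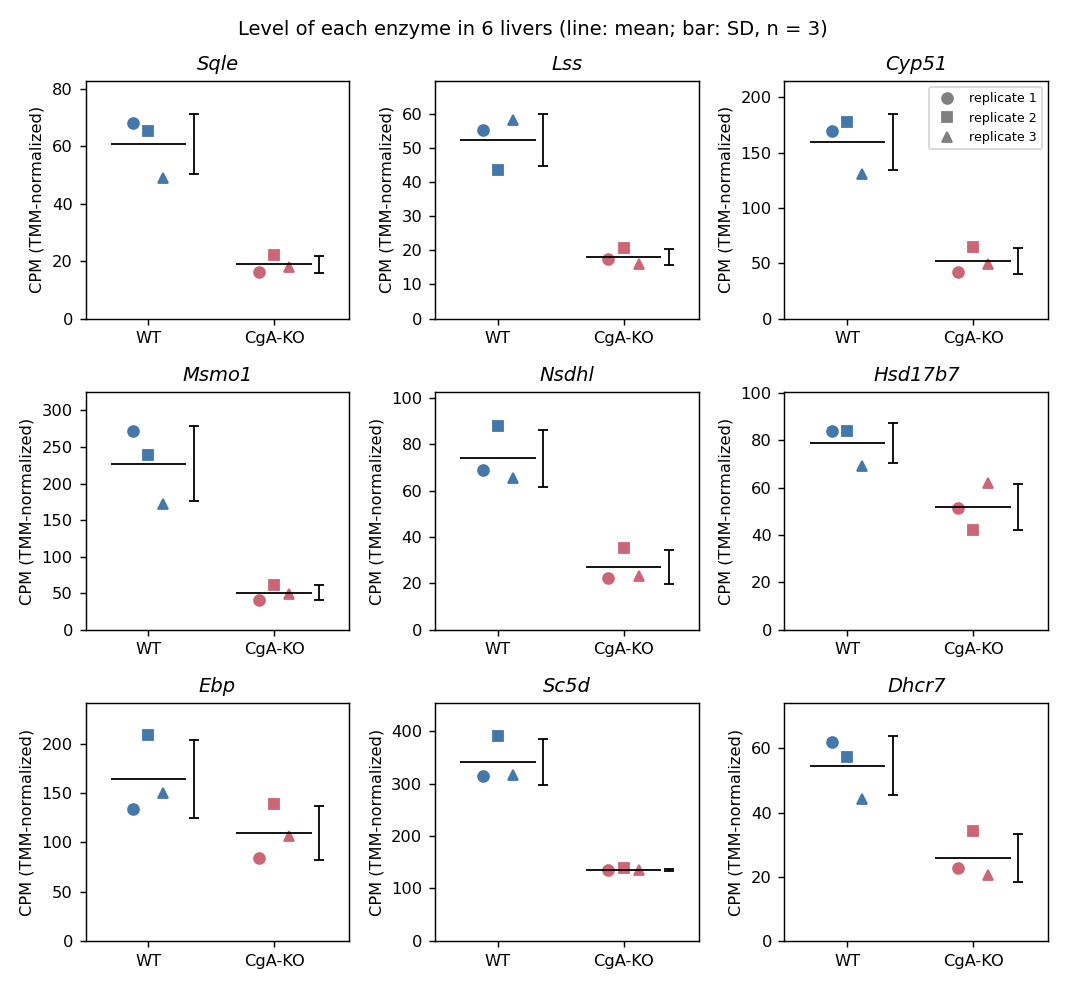
Level of each of the 9 genes in TMM-normalized CPM (y axis, from 0, a scale per gene) in 3 WT and 3 CgA-KO livers, with 1 symbol per replicate number, a line at the mean and a bar for the SD. The CgA-KO livers sit below all WT livers for 8 genes, and only for Ebp do the genotypes overlap.

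Sqle encodes squalene epoxidase, which adds an oxygen to squalene and is a slow step of the pathway. It lies on chromosome 15 from 59315077 to 59331192 of GRCm38, on the plus strand. WT replicates 1, 2 and 3 held 68.1, 65.3 and 49.0 CPM, and CgA-KO replicates 1, 2 and 3 held 16.3, 22.2 and 18.1 CPM. The lowest WT liver was thus above the highest CgA-KO liver by 1.14 on the log2 scale. The means were 60.8 ± 10.3 and 18.9 ± 3.04 CPM (SD, n = 3), and edgeR's quasi-likelihood test gave a log2 fold change of -1.68 (SE 0.204, adjusted p = 0.0039).

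Lss encodes lanosterol synthase, which folds the epoxide into the first sterol, lanosterol. The gene spans 76531588 to 76557138 on chromosome 10, plus strand. WT livers held 55.1, 43.6 and 58.1 CPM and CgA-KO livers 17.5, 20.7 and 15.9 CPM. Unlike Sqle, Lss was lowest in WT replicate 2 rather than in WT replicate 3. The means were 52.3 ± 7.64 and 18.1 ± 2.45 CPM (SD, n = 3), with a log2 fold change of -1.53 (SE 0.189, edgeR adjusted p = 0.00411). An antisense gene, 4930483K19Rik, shares 3.53% of its exon bases, and whether the quantification used strand is not given in the sources used here.

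Cyp51 encodes the cytochrome P450 that removes a methyl group from lanosterol. It spans 4081145 to 4104746 on chromosome 5, minus strand, and 3.76% of its exon bases overlap Akap9 on the opposite strand. The WT livers had 170, 178 and 130 CPM, and the CgA-KO livers 42.6, 64.7 and 49.0 CPM. CgA-KO replicate 2 was the highest of its genotype, as for Sqle and Lss. Mean levels were 159 ± 25.3 and 52.1 ± 11.4 CPM (SD, n = 3), a log2 fold change of -1.61 (SE 0.231, edgeR adjusted p = 0.0057).

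Msmo1, Nsdhl and Hsd17b7 encode the enzymes that strip the remaining pair of methyl groups from the first ring. Msmo1, the oxidase that opens this cycle, spans 64718139 to 64733792 on chromosome 8, minus strand. Its level was 271, 239 and 172 CPM in the WT livers and 41.0, 61.2 and 49.0 CPM in the CgA-KO livers. No other gene of the 9 showed a wider gap, 1.49 on the log2 scale between the lowest WT and the highest CgA-KO liver. From 227 ± 50.9 to 50.4 ± 10.2 CPM (SD, n = 3), Msmo1 had a log2 fold change of -2.17 (SE 0.255, edgeR adjusted p = 0.00355), and 0.591% of the genes tested had a lower one.

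Nsdhl encodes the dehydrogenase that follows, which releases the carboxyl group. It spans 72918557 to 72958514 on chromosome X, plus strand. The 3 WT livers held 68.7, 88.1 and 65.3 CPM, and the CgA-KO livers 22.4, 35.4 and 23.2 CPM. Replicate 2 was the highest of each genotype. Nsdhl fell from 74.0 ± 12.3 to 27.0 ± 7.29 CPM (SD, n = 3), a log2 fold change of -1.45 (SE 0.234, edgeR adjusted p = 0.0079).

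Hsd17b7, which encodes the ketone reductase that ends the cycle, spans 169949535 to 169969241 on chromosome 1, minus strand. Its level was 83.8, 83.8 and 69.3 CPM in WT livers and 51.5, 42.1 and 61.9 CPM in CgA-KO livers. The genotypes did not overlap, but the gap was only 0.16 on the log2 scale, and CgA-KO replicate 2 was here the lowest of all 6 livers. At 79.0 ± 8.36 and 51.8 ± 9.87 CPM (SD, n = 3), the log2 fold change was -0.61 (SE 0.201) with a 95% interval from -1.06 to -0.15. edgeR did not call it (adjusted p = 0.0825), whereas DESeq2 did (log2 fold change -0.63, adjusted p = 0.0409), a test that called 7.15% of the genes it tested lower.

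Ebp encodes the isomerase that moves a double bond within the ring system, and is also known as a binding site for drugs such as emopamil. It spans 8185329 to 8193512 on chromosome X, minus strand. WT livers had 134, 209 and 150 CPM, and CgA-KO livers 83.7, 138 and 106 CPM. CgA-KO replicate 2 lay above WT replicate 1, so that the genotypes overlapped. The means of 164 ± 39.5 and 109 ± 27.5 CPM (SD, n = 3) gave a log2 fold change of -0.59 (SE 0.260, edgeR adjusted p = 0.174). Its 95% interval ran from -1.17 to 0.00, so both a decrease as large as that of Dhcr7 and no difference lie within it.

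Sc5d encodes the desaturase that introduces the next double bond and depends on cytochrome b5. It spans 42251595 to 42264256 on chromosome 9, minus strand. Its WT level was 315, 392 and 316 CPM, and its CgA-KO level 135, 138 and 135 CPM. The 3 CgA-KO livers were nearly equal, with an SD of 0.0213 on the log2 scale, the smallest among the 9 genes, where the SDs of the others in CgA-KO ran from 0.192 to 0.393. Sc5d fell from 341 ± 44.2 to 136 ± 2.02 CPM (SD, n = 3), a log2 fold change of -1.33 (SE 0.202, edgeR adjusted p = 0.00682).

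Dhcr7 encodes the reductase that gives cholesterol in the last step of one branch, and its loss in people causes Smith-Lemli-Opitz syndrome. It spans 143823145 to 143848410 on chromosome 7, plus strand. The livers held 62.1, 57.5 and 44.4 CPM in WT and 22.8, 34.4 and 20.5 CPM in CgA-KO. The means were 54.7 ± 9.21 and 25.9 ± 7.44 CPM (SD, n = 3), and the log2 fold change was -1.07 (SE 0.238, edgeR adjusted p = 0.0218). Dhcr7 was the one call of the 7 that depended on single libraries and on the scaling. edgeR's adjusted p was 0.0612 when WT replicate 2 was left out and 0.052 when WT replicate 3 was. It was 0.0911 with CgA-KO replicate 1 left out and 0.0693 with CgA-KO replicate 3 left out, and over all fits with a library left out the log2 fold change ran from -1.30 to -0.91.

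The 3 CgA-KO livers lay below all 3 WT livers in 8 of the 9 genes, as they did in 14.6% of all genes tested. For each of these 8 an exact two-sided permutation test gave p = 0.1, the smallest that 3 livers against 3 allow, and for Ebp it gave p = 0.2. In bulk liver RNA, fewer cells of a type and less RNA per cell cannot be told apart. The extraction protocol names 3 mice of each genotype and the titles give only replicate numbers, so the p-values measure the spread between these samples.

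**Figure D3:**
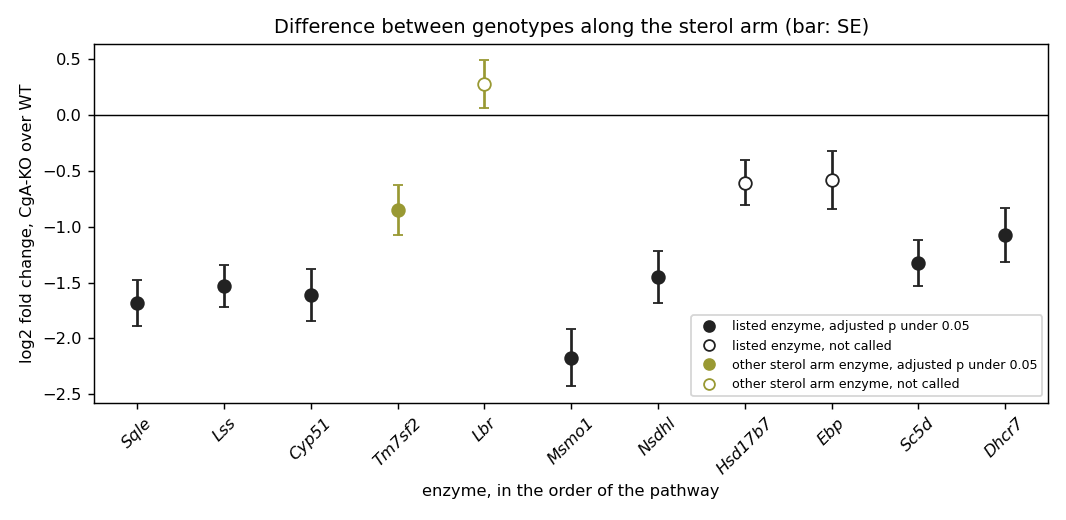
Log2 fold change of CgA-KO over WT (y axis) for sterol arm enzymes in the order of the pathway (x axis), from edgeR, with a bar of 1 SE on each side. Filled points had an adjusted p-value under 0.05: 7 of the 9 listed genes (black) and Tm7sf2 outside them (olive), with Hsd17b7, Ebp and Lbr open.

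The fitted differences were of unequal size along the pathway, which was not tested. The first 5 genes in the order of the pathway (Sqle, Lss, Cyp51, Msmo1 and Nsdhl) had log2 fold changes from -2.17 to -1.45. Hsd17b7 and Ebp, which follow, had -0.61 and -0.59, and the last pair, Sc5d and Dhcr7, had -1.33 and -1.07. Counts of Msmo1 divided by those of Ebp in the same library, a ratio free of any library scaling, were 2.03, 1.15 and 1.15 in the WT livers and 0.489, 0.442 and 0.462 in the CgA-KO livers. The same ratio for Sqle was 0.509, 0.313 and 0.327 in WT and 0.195, 0.161 and 0.171 in CgA-KO. For Lss over Ebp the genotypes overlapped, with 0.412, 0.2089 and 0.388 in WT and 0.2094, 0.150 and 0.150 in CgA-KO. For Hsd17b7 over Ebp it was 0.626, 0.402 and 0.463 in WT and 0.616, 0.304 and 0.583 in CgA-KO, and the genotypes overlapped. Ebp was picked as the denominator after its values were seen, so these ratios are a description and were not tested.

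As a summary of each liver, the median deviation of the 9 genes from their WT means was 0.09, 0.12 and -0.18 on the log2 scale in WT replicates 1, 2 and 3. It was -1.56, -1.29 and -1.66 in CgA-KO replicates 1, 2 and 3. WT replicate 3 was thus the lowest of the WT livers and CgA-KO replicate 2 the highest of the CgA-KO livers, with more than 1 log2 unit between them. Single genes spread more widely and did not all follow this order. In the CgA-KO livers Dhcr7 ran from -1.40 to -0.65 and Ebp from -0.94 to -0.22. WT replicate 1 was the lowest WT liver for Ebp, Sc5d stood at -0.11 in WT replicate 1 and -0.10 in WT replicate 3, Lss was lowest in WT replicate 2, and Hsd17b7 had its lowest liver in CgA-KO replicate 2.

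Levels of different genes were compared per kb of the principal annotated transcript (CPM per kb). In WT livers Msmo1 was highest with 111 ± 24.9, followed by Ebp with 94.2 ± 22.6 and Sc5d with 71.2 ± 9.23 CPM per kb (SD, n = 3). Cyp51 (40.5 ± 6.44), Nsdhl (34.1 ± 5.66), Sqle (22.0 ± 3.74), Dhcr7 (19.4 ± 3.27), Hsd17b7 (17.1 ± 1.81) and Lss (11.2 ± 1.64 CPM per kb) came after them. The livers of neighbours in this order overlapped, except between Sc5d and Cyp51, Nsdhl and Sqle, and Hsd17b7 and Lss. In CgA-KO livers Ebp led with 62.8 ± 15.8 CPM per kb, above Sc5d with 28.4 ± 0.429 and Msmo1 with 24.7 ± 4.99, and the livers of Ebp did not overlap those of Sc5d. The livers of Msmo1 (20.04 to 29.94) spanned those of Sc5d (28.1 to 28.9), so these genes were not ordered, while Msmo1 lay below Ebp in every CgA-KO liver and Lss was last in both genotypes with 3.87 ± 0.526 CPM per kb in CgA-KO. The order depends on the length used: per kb of all merged exons, Ebp led in WT with 71.1, ahead of Sc5d with 70.0 and Msmo1 with 37.0 CPM per kb, and Lss was again last.

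Further enzymes of the sterol arm reduce double bonds. Tm7sf2, a sterol reductase that acts on the product of Cyp51, had 87.9, 141 and 93.9 CPM in WT and 53.0, 64.3 and 61.4 CPM in CgA-KO livers. It fell with a log2 fold change of -0.85 (SE 0.227, edgeR adjusted p = 0.042), but the call was marginal. Leaving out WT replicate 2 gave -0.61 (edgeR adjusted p = 0.0834), and leaving out WT replicate 3 gave -0.95 (0.0999). With CgA-KO replicates 1, 2 and 3 left out in turn the values were -0.74 (edgeR adjusted p = 0.152), -0.87 (0.0815) and -0.84 (0.0925). Library totals alone gave -0.55 (edgeR adjusted p = 0.0748), and scaling by hepatocyte markers -0.59 (0.402). Lbr, the lamin B receptor of the nuclear envelope, which has the same reductase activity, was at 12.6 ± 0.885 and 15.2 ± 3.38 CPM (SD, n = 3) (log2 fold change 0.27, edgeR adjusted p = 0.438).

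All 9 genes of the mevalonate arm, which makes squalene, fell, with a median log2 fold change of -1.49. Under scaling by hepatocyte markers 6 of them were called. Idi1, the isomerase that makes the building blocks of squalene, fell from 250 ± 46.1 to 56.8 ± 14.4 CPM (SD, n = 3) (log2 fold change -2.14, edgeR adjusted p = 0.00397). Fdft1 encodes squalene synthase, which makes the substrate of Sqle, and fell from 117 ± 12.2 to 41.7 ± 16.6 CPM (SD, n = 3; log2 fold change -1.49, edgeR adjusted p = 0.0128). Leaving out CgA-KO replicate 1 gave -1.33 (edgeR adjusted p = 0.0543). Pmvk, a mevalonate pathway kinase, had the smallest change of the list, -1.10 (edgeR adjusted p = 0.0233), and lost the call when WT replicate 2 or 3 or CgA-KO replicate 1 or 3 was left out (-1.18 to -0.82, edgeR adjusted p from 0.0599 to 0.0888) and under scaling by hepatocyte markers (-0.84, 0.178).

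The electron donors of the arm were not tested as a group. Of 6 genes for reductases, cytochrome b5 forms and their partners, 1 was called lower and 0 higher, with a median of -0.41. Of all genes tested, 3.84% were called lower. In this list 5 of the 6 log2 fold changes lay below 0. For 3 of the 6 all CgA-KO livers lay below all WT livers, as for 14.6% of all genes tested. Without adjustment, edgeR's test had 2 lower at a p-value under 0.05 and 0 higher, as had DESeq2 after adjustment. By these rules 11.9% and 7.15% of all genes tested were lower. Cyb5b, an outer mitochondrial cytochrome b5, had the 1 call (log2 fold change -1.01, edgeR adjusted p = 0.023). It was lost when WT replicate 2 or 3 or CgA-KO replicate 1 or 2 was left out (-1.04 to -0.86, edgeR adjusted p from 0.0509 to 0.0928), and under scaling by hepatocyte markers (-0.72, 0.236). Cyb5a, the other cytochrome b5 form of the list, was not called (log2 fold change -0.17, edgeR adjusted p = 0.766), and its genotypes overlapped. Por, the reductase that feeds Cyp51 and Sqle, was at 494 ± 48.8 CPM in WT livers, against 500.2 ± 203 CPM in CgA-KO livers (SD, n = 3). Its log2 fold change was 0.02 (edgeR adjusted p = 0.976), and its sign changed between alternatives.

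Among 11 genes for SREBPs, their control and their partner factors, 3 were called lower and 1 higher, with a median of -0.28. Over all genes tested, 3.84% were called lower and 8.60% higher. One lower call was Nfyb, for a part of NF-Y (log2 fold change -0.77, edgeR adjusted p = 0.0373). It was lost with library totals (edgeR adjusted p = 0.126) and with hepatocyte markers (0.559). It was also lost when WT replicate 2 or 3 or any CgA-KO replicate was left out (edgeR adjusted p from 0.0743 to 0.15). With library totals 2 were called lower and 2 higher. Insig1 and Insig2 encode the proteins that hold the SREBP precursor in the endoplasmic reticulum, and they changed in opposite directions. Insig1, itself an SREBP target, had 375, 421 and 363 CPM in WT and 111, 118 and 86.7 CPM in CgA-KO livers (log2 fold change -1.88, edgeR adjusted p = 0.00346). Insig2 had 47.1, 108 and 60.2 CPM in WT and 374, 289.9 and 711 CPM in CgA-KO livers (log2 fold change 2.68, edgeR adjusted p = 0.00778). Leaving out WT replicate 3 gave 2.56 (edgeR adjusted p = 0.0512). Srebf2, which encodes the SREBP most tied to sterol synthesis, was at 50.7 ± 4.94 and 37.6 ± 2.96 CPM (SD, n = 3) and was not called (log2 fold change -0.43, edgeR adjusted p = 0.123). Srebf1, more tied to fatty acid synthesis, fell from 122 ± 39.4 to 36.7 ± 11.4 CPM (SD, n = 3) (log2 fold change -1.73, edgeR adjusted p = 0.0128). Leaving out WT replicate 2 gave -1.69 (edgeR adjusted p = 0.0513), and leaving out WT replicate 3 gave -1.50 (0.0553).

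Of 6 genes of sterol uptake and transfer, 3 fell and 1 rose, and 5 of the 6 log2 fold changes lay below 0. Over all genes tested, 3.84% were called lower and 8.60% higher. Stard4, a carrier of cholesterol between membranes, fell from 113 ± 28.2 to 29.9 ± 2.03 CPM (SD, n = 3) (log2 fold change -1.91, edgeR adjusted p = 0.00366). Npc2, which hands cholesterol out of lysosomes, rose by 0.83 on the log2 scale (edgeR adjusted p = 0.0307), a call lost when WT replicate 3 or any CgA-KO replicate was left out (0.70 to 0.90, edgeR adjusted p from 0.054 to 0.161), with scaling by hepatocyte markers (edgeR adjusted p = 0.0591) and with a replicate block (0.0503). The genes of sterol disposal went both ways. Of 13 tested, 3 fell and 2 rose (against 3.84% and 8.60% of all genes tested), with a median of -0.06. This balance turned with the scaling: 1 was called lower and 3 higher with library totals (median 0.20), 2 and 3 with upper quartiles (-0.01), and 1 and 2 with hepatocyte markers (0.18). Cyp7a1, the rate-limiting enzyme of bile acid synthesis, fell from 396 ± 39.9 to 128 ± 56.1 CPM (SD, n = 3) (log2 fold change -1.63, edgeR adjusted p = 0.015). Leaving out WT replicate 3 gave -1.54 (edgeR adjusted p = 0.0691). Soat1, which esterifies cholesterol and is abundant in macrophages, rose from 4.72 ± 2.89 to 23.5 ± 3.38 CPM (SD, n = 3) (log2 fold change 2.35, edgeR adjusted p = 0.00809).

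Fatty acid synthesis, the other arm under SREBP control, had 5 of 10 genes called lower and 0 higher, with a median of -0.92. Me1, malic enzyme, which supplies NADPH, fell furthest in the list (log2 fold change -1.78, edgeR adjusted p = 0.00603). Acacb, the mitochondrial acetyl-CoA carboxylase, was at 60.7 ± 5.68 and 59.2 ± 10.6 CPM (SD, n = 3), with a log2 fold change of -0.04 that turned to between 0.02 and 0.23 under other scalings. With scaling by hepatocyte markers 2 of these 10 genes were called lower.

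**Figure D4:**
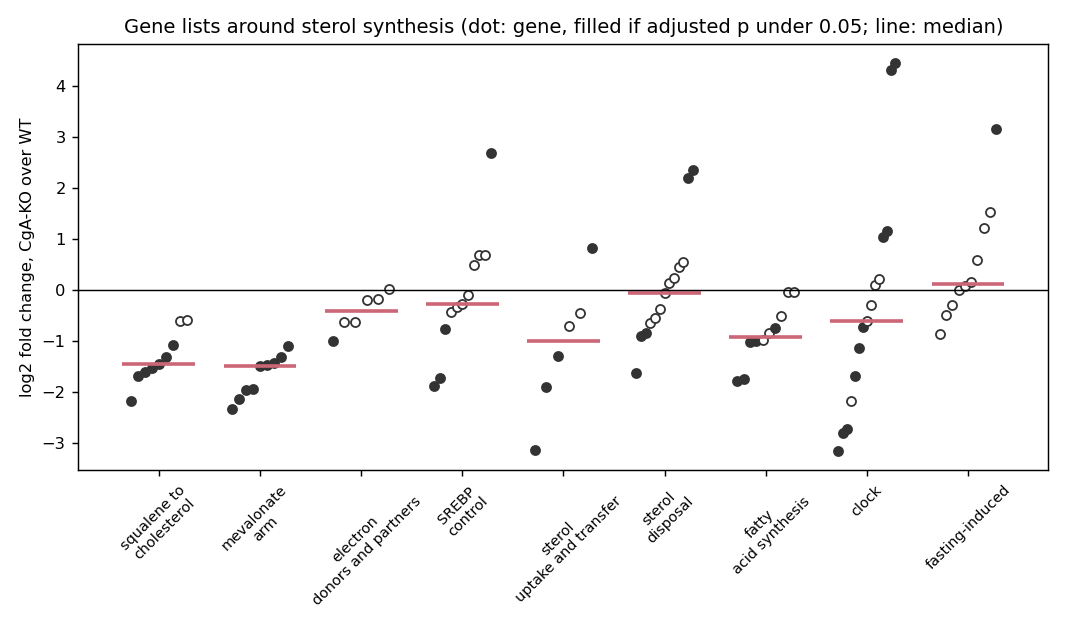
Log2 fold change of CgA-KO over WT (y axis) of every tested gene in the sterol arm and in 8 related lists (x axis), where a filled dot had an edgeR adjusted p-value under 0.05 and the line is the median of the list. The medians of the 9 sterol arm genes (-1.45) and of the mevalonate arm (-1.49) are the lowest, and the clock list reaches from -3.16 to 4.44.

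Genes of the circadian clock, which times liver sterol synthesis over the day, also differed between the genotypes. Of 15 clock genes, 6 were called lower and 4 higher, against 3.84% and 8.60% of all genes tested. Arntl, the core activator, rose from 0.814 ± 0.383 to 16.8 ± 2.43 CPM (SD, n = 3) (log2 fold change 4.44, edgeR adjusted p = 0.00164). Per3, of the repressing arm, fell from 70.0 ± 24.5 to 7.82 ± 1.68 CPM (SD, n = 3) (log2 fold change -3.16, edgeR adjusted p = 0.00247). The hour of collection is not given in the sources used here, and the part of the clock difference in the sterol genes was not tested.

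Feeding state also acts on sterol synthesis and is not given in the sources used here for these livers. Of 10 genes known to be induced by fasting, 0 were called lower and 1 higher, with a median of 0.11. Over all genes tested, edgeR called 3.84% lower and 8.60% higher. Without adjustment, edgeR's test had 0 lower and 4 higher at a p-value under 0.05, and DESeq2 called 2 higher, where 17.2% and 11.6% of all genes tested were higher by these rules. The called gene was Igfbp1, an insulin-repressed secreted protein, at 10.9 ± 7.07 and 95.8 ± 60.3 CPM (SD, n = 3; log2 fold change 3.16, edgeR adjusted p = 0.0125). Leaving out WT replicate 2 gave 2.94 (edgeR adjusted p = 0.103), and leaving out WT replicate 3 gave 2.87 (0.0999). With a filter of only 1 count in total it was 3.18 (edgeR adjusted p = 0.0805). Fgf21, the lowest of the list, was not called (log2 fold change -0.86, edgeR adjusted p = 0.321). The part of feeding in the decrease of the sterol genes was not tested.

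Markers of other liver cells moved with the genotype. Of 11 Kupffer cell markers 10 rose, the median log2 fold change being 3.04, and their summed level was 134 to 348 CPM in WT and 1454 to 2078 CPM in CgA-KO livers. Among T and NK cell markers 5 of 9 tested rose. The sum over all 10 listed was 4.34 to 16.3 CPM in WT and 49.5 to 122 CPM in CgA-KO livers. Of 8 stellate cell markers 3 rose, with sums of 164 to 225 and 303 to 471 CPM. Of the 8 neutrophil markers 3 passed the filter and 2 of these rose. Summed over all 8, tested or not, their level was 2.41 to 9.99 CPM in WT and 27.2 to 368 CPM in CgA-KO livers. Mpo, a granule enzyme of that list, had 0 counts in all 3 WT libraries and 0, 2107 and 15 counts in CgA-KO replicates 1, 2 and 3, and no other marker of any list was at 0 in all WT libraries. CgA-KO replicate 2 stood apart in these markers, with a neutrophil sum of 368 CPM against 27.2 and 32.9 CPM in CgA-KO replicates 1 and 3, and a T and NK cell sum of 122 CPM against 53.2 and 49.5 CPM. With that library left out, 7 of the 9 sterol arm genes were called lower by edgeR and their median log2 fold change was -1.61. For B cells (0 of 7 called), bile duct (0 of 5) and endothelium (1 lower and 1 higher of 7), the summed levels of the genotypes overlapped. Over all genes tested, edgeR called 3.84% lower and 8.60% higher. Of 4 red cell markers, 1 was called lower and 1 higher, with sums of 118 to 291 CPM in WT and 333 to 475 CPM in CgA-KO livers. Of 11 hepatocyte markers 0 were called, with a median of -0.17, and their sums overlapped, at 60680 to 100200 CPM in WT and 52270 to 87960 CPM in CgA-KO. Without adjustment, at a p-value under 0.05, edgeR's test had 1 hepatocyte marker lower, 1 bile duct marker higher and 0 B cell markers in either direction, and DESeq2 called 1 hepatocyte marker lower and 0 of the bile duct and B cell markers. By each of these rules 1 endothelial marker was lower and 3 were higher, so its overlapping sums cover changes in both directions. Over all genes tested, 11.9% were lower and 17.2% higher without adjustment, and DESeq2 called 7.15% and 11.6%. When the libraries were scaled to the hepatocyte markers, 6 of the 9 sterol arm genes were called lower and their median log2 fold change was -1.26. That scaling used the summed counts of the markers. Alb alone held 38120 to 66130 CPM in WT and 30650 to 55880 CPM in CgA-KO livers, so it rests largely on Alb. The part of the other cell types in the result was not tested.

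The genes whose profile over the 6 livers was most like that of the 9 were sought among 9927 tested genes with a mean of at least 5 CPM. The measure was the root mean square (RMS) difference between the log2 CPM of a gene, centred on its own mean, and the median of the centred values of the 9 genes. Acat2 (0.123) and Mvk (0.135) of the mevalonate arm were the nearest, followed by Slc5a6 (0.153), a transporter of biotin and pantothenate, Ttc39c (0.169), Paqr7 (0.173), Fitm1 (0.176), Nxpe2 (0.177) and the carboxylesterase Ces1e (0.189). Slc5a6 fell from 19.5 ± 0.480 to 7.13 ± 0.296 CPM (SD, n = 3), and Ttc39c from 366 ± 31.7 to 132 ± 20.5 CPM. All 8 were lower in CgA-KO, with log2 fold changes between -1.57 and -1.27, which the choice by profile fixes. Leaving out CgA-KO replicate 1 lost the calls of Mvk (log2 fold change -1.34, edgeR adjusted p = 0.0505) and Nxpe2 (-1.11, 0.0596). Scaling by hepatocyte markers lost those of Acat2, Mvk, Slc5a6 and Nxpe2 (edgeR adjusted p from 0.0599 to 0.0811). Within the 9 genes the RMS difference ran from 0.131 for Sc5d to 0.494 for Hsd17b7, with Ebp at 0.488 and Msmo1 at 0.393.

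The differences of the 9 genes were recomputed with other tests, scalings and filters and without each library. All 135 values, 9 genes under 15 alternatives, were below 0, and Sqle, Lss, Cyp51, Msmo1, Nsdhl and Sc5d were called at an adjusted p-value under 0.05 in every alternative. Msmo1 ran from -2.35 to -1.92 on the log2 scale, Sqle from -1.82 to -1.42 and Sc5d from -1.38 to -1.04. Ebp was called in none of them and ran from -0.75 to -0.28.

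**Figure D5:**
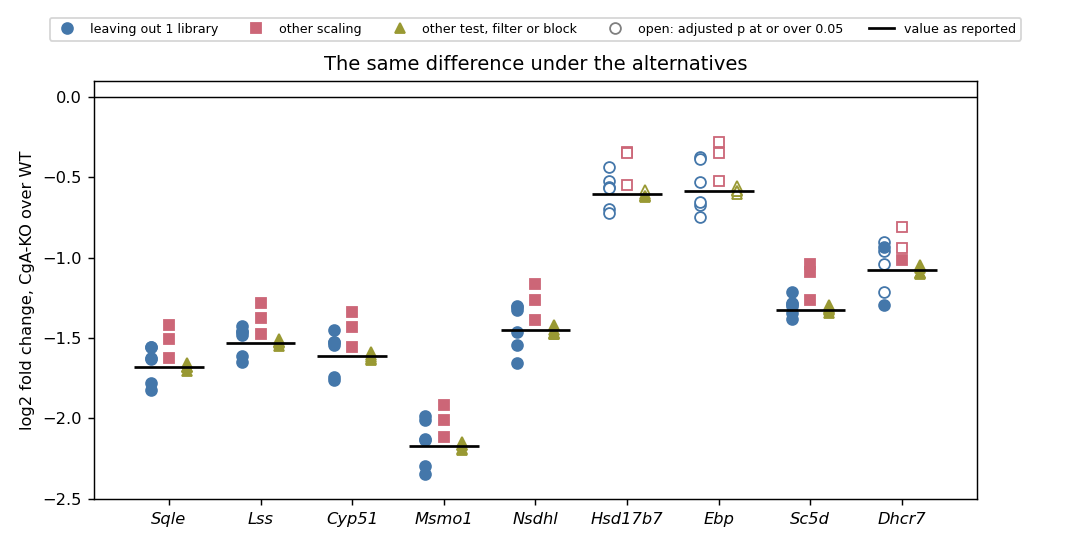
Log2 fold change of CgA-KO over WT (y axis) for each of the 9 genes under the alternatives: leaving out 1 library (circles), other scalings (squares) and other tests, filters or the block (triangles), with a line at the value as reported. Open symbols had an adjusted p-value at or over 0.05, which holds for every alternative of Ebp, all but DESeq2 for Hsd17b7 and several for Dhcr7, and all values lie below 0.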

How the data were processed

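Liver poly(A) RNA of 3 WT and 3 CgA-KO male mice was sequenced. The authors quantified reads at the transcript level with Salmon 1.4.0 against GRCm38 (submitters' processing notes and methods) and deposited counts, whole numbers per gene symbol. How transcripts were summed to genes is not given in the sources used here. All 6 columns were mapped to samples, with 0 left over.

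The counts were analysed here with edgeR 4.0.16 in R 4.3.3: filterByExpr with a minimum count of 10 (13867 genes), TMM, robust quasi-likelihood fits, a two-sided test of genotype and Benjamini-Hochberg adjustment over all genes tested, with calls at an adjusted p-value under 0.05. The SE is the log2 fold change over the square root of F. Log2 CPM used a prior count of 2. Floors of 3 counts and intervals cover counting error only, except the 95% intervals of fold changes, which come from the fit. The alternatives were DESeq2 1.42.0, limma-voom (limma 3.58.1), scaling by library totals, upper quartiles or hepatocyte markers, filters on low counts, a replicate block, a threshold of 0.01 and fits without each library. The procedure was tested on simulated data.

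The genes named are the 9, other sterol arm enzymes (Tm7sf2, Lbr), 6 neighbours (Idi1, Fdft1, Srebf2, Insig1, Stard4, Por), the lowest and the highest gene of each other pathway list, Chga and the 8 nearest in profile. Srebf1, Nfyb, Cyb5a, Alb and Mpo fall outside this rule and were chosen after their values were seen. Some genes under this rule are left out of the text. Members and lists were chosen with earlier results of these data known. A total of 19 lists was used, with 165 of 167 genes in the table. Libraries of the same genotype were not duplicates of each other (chi-square per degree of freedom 31.9 to 202). Gene coordinates and lengths are from GENCODE for GRCm38, and promoters from RefSeq (GRCm38.p6). Python 3.11.15 with matplotlib 3.10.9 drew the figures. Raw reads were not analysed here.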

Additional observations from a re-analysis of the deposited data

How the results depend on the processing

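Between 6 and 8 of the 9 genes were called under every alternative, and of 135 single values 127 kept their direction and their side of the threshold, 7 lost the call, 1 gained it and 0 reversed. The 9 values at a threshold of 0.01 are those of the main fit, so only their call could change. The cause of each change below was not tested, except that fits without a library hold fewer samples and a threshold of 0.01 is stricter by construction. DESeq2 called 2601 genes and also called Hsd17b7 (log2 fold change -0.63, DESeq2 adjusted p = 0.0409). Scaling by library totals raised the median of all genes to 0.26, gave the 9 genes a median of -1.16 and left Dhcr7 uncalled at -0.81 (edgeR adjusted p = 0.0922). With hepatocyte markers the median of all genes was 0.21, 937 genes were called, the 9 genes had a median of -1.26 and Dhcr7 was at -0.94 (edgeR adjusted p = 0.127). At a threshold of 0.01, 360 genes were called and Dhcr7 (-1.07) was not. Of the 1726 genes called in all, 30.9% were lower in CgA-KO, against 13.4% of 1493 with library totals and 12.1% of 937 with hepatocyte markers. Without 1 library in turn, the count of calls ran from 394 (without WT replicate 3) to 2126 (without WT replicate 1), with 841 when WT replicate 2 was left out and 744 or 976 when CgA-KO replicate 1 or 2 was, the median of the 9 genes from -1.61 to -1.30, and Dhcr7 from -1.30 to -0.91. Deviations from the genotype mean correlated with r = 0.199, 0.0127 and -0.0659 between samples of the same replicate number. Between samples of unlike numbers r ran from -0.264 to 0.234. With 3 livers per genotype these values cannot show whether the numbers pair samples. With a replicate block 1498 genes and 7 of the 9 were called, with a median of -1.47, and the call of Npc2 was lost (edgeR adjusted p = 0.0503). Depth limited none of the 9 genes, each with at least 352 counts per library.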
